A study of Mus musculus with 8 samples.

Results

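Helper T cell effector cytokines are the secreted proteins through which activated CD4 T cells instruct other immune cells. The set described here has 10 genes, Il2, Il3, Csf2, Il4, Il5, Il9, Il13, Ifng, Il17a and Il17f, chosen by name. All 10 were measured, each by 1 transcript cluster (a group of array probes for 1 gene) with a single gene symbol, out of 19938 genes tested. Gene expression was read on 8 Affymetrix whole-transcript arrays of mouse CD4 T cells sorted as naive, which means not yet exposed to antigen. The arrays compare T cell-specific conditional Bcl6-/- mice (4 arrays, called Bcl6 cKO here) with wild-type mice (4 arrays, called WT). Both genotypes were treated alike: the cells were stimulated for 24 h with antibodies to CD3 (the antigen receptor complex) and CD28 (the costimulatory receptor), and RNA was then extracted. The labels give the tag Tf0 to all samples without saying what it means, and they give no Cre driver, age, sex or pooling of animals. Replicate numbers run from 1 to 4 in each group. Whether each number is its own animal is not stated, and the p-values therefore cover only the variation among these 8 arrays, which may be technical.

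As background, a naive CD4 T cell that meets antigen first makes interleukin-2 and later commits to a lineage with its own cytokines. Th1 cells make interferon gamma under the factor T-bet (Tbx21), Th2 cells make interleukins 4, 5 and 13 under Gata3, and Th17 cells make interleukins 17A and 17F. The repressor Bcl6 directs the follicular helper lineage and is known to oppose the other helper programs.

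Signals are log2 values, so a difference of 1 is a doubling of the signal. The arrays had medians between 7.57 and 7.64 over all genes tested. Bcl6 itself was not lower on the arrays labelled knockout, with 8.74 ± 0.27 in Bcl6 cKO and 8.37 ± 0.20 in WT (log2 signal, SD, n = 4 each). The labels do not say which exons were removed, so its 1 cluster does not check the genotype. Sex, read from the arrays, was not balanced between the groups. Xist was high on Bcl6 cKO replicates 2, 3 and 4 and WT replicate 4, while Y-linked genes were high on Bcl6 cKO replicate 1 and WT replicates 1, 2 and 3. WT replicate 4, the only WT array with high Xist, also stood apart over all genes, with the widest deviations (interquartile range 0.18, against 0.085 to 0.115 on the other arrays) and the lowest array weight (0.367, against 0.759 or more).

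The windows around the start sites are printed for the members whose signals varied together, apart from Il5. Each runs from 250 bases before to 50 bases after the start (RefSeq, GRCm38.p6) and is written 5′ to 3′ on the gene's own strand. Capitals mark 3 short motifs searched on both strands: GGAAA, the core bound by NFAT factors; TGANTCA, the AP-1 site; and TTCNNNGAA, a form shared by STAT sites and the Bcl6 core site.

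Il3, chr11:54267230-54267529, minus strand: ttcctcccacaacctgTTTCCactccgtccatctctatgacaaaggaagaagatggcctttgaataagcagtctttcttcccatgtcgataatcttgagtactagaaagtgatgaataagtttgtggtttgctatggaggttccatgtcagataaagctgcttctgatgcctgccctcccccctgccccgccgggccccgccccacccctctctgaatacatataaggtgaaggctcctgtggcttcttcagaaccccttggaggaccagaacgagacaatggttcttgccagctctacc
Csf2, chr11:54249850-54250149, minus strand: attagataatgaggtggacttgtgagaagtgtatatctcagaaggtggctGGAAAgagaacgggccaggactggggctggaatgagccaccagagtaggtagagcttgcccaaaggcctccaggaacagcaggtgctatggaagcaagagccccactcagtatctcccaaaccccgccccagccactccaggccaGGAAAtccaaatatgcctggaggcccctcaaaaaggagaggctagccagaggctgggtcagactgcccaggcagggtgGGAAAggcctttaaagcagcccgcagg
Il4, chr11:53618616-53618915, minus strand: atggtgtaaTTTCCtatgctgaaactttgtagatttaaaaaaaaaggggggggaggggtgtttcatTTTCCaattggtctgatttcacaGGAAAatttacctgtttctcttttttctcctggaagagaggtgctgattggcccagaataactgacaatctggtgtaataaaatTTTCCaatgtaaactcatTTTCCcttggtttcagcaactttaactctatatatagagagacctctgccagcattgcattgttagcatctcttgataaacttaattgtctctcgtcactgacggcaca
Il13, chr11:53634653-53634952, minus strand: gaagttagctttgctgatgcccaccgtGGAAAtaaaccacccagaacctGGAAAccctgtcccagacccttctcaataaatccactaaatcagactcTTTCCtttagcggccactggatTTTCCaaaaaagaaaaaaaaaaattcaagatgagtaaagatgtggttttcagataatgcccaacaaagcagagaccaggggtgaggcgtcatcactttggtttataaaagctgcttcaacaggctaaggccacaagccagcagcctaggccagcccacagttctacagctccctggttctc
Ifng, chr10:118440796-118441095, plus strand: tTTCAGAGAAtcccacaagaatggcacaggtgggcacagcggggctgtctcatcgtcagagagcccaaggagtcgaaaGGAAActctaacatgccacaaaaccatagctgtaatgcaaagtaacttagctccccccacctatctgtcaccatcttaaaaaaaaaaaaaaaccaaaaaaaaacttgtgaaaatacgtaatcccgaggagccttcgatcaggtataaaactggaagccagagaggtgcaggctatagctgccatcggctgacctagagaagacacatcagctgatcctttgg
Il2, chr3:37125905-37126204, minus strand: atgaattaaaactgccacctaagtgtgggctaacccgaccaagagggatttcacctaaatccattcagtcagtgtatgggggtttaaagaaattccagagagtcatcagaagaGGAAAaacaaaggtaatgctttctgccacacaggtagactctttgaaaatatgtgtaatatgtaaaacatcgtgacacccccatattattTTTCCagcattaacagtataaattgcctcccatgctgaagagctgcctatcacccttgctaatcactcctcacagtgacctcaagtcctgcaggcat

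All 10 genes had an entry in the RefSeq table. Of the 11 windows held for them, 10 had at least 1 GGAAA, against 61.3% of all 32817 promoter windows of the same length, and 4 had 3 or more, against 9.41%. The Il4 window above had 5 matches, Il13 had 4, Csf2 had 3, Il2 had 2, and Il3 and Ifng had 1 each. Of the windows not printed, Il9 had 3, Il5 and Il17f had 2 each, the other Il4 window had 1 and Il17a had none. TTCNNNGAA occurred in the Ifng window and in a second Il4 start window that is not shown, where it overlaps a GGAAA. It occurs in 8.29% of all windows. TGANTCA was found in the Il9 and Il17a windows, against 7.81% of all windows, and in none of those printed. TATAAA, a common form of the TATA box not marked by capitals, was found in the windows of Il2, Il13, Ifng, Il17a and Il17f, against 13.6% of all windows. These matches describe the letters of the window and do not show binding.

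No cytokine of the set passed the test over all genes. The mean signal in Bcl6 cKO was above that in WT for all 10, with a median log2 difference of 0.44. Bcl6 cKO replicate 1 was not above the highest WT array for any of them. Over all genes 51.0% were above WT, with a median of 0.0025. At an adjusted p of 0.05 (limma, Benjamini-Hochberg over all genes) 0 of the 10 were called, against 0.221% of all genes (0.105% higher in Bcl6 cKO). Without adjustment 2 of the 10, Il3 and Il2, had a p under 0.05, against 10.8% of all genes. The groups overlapped for every one of the 10, while 5.97% of all genes had groups that did not overlap (2.33% with Bcl6 cKO higher). Blocked on replicate number, 0 of the 10 were called, against 0.0752% of all genes higher and 0.1% lower.

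**Figure D1:**
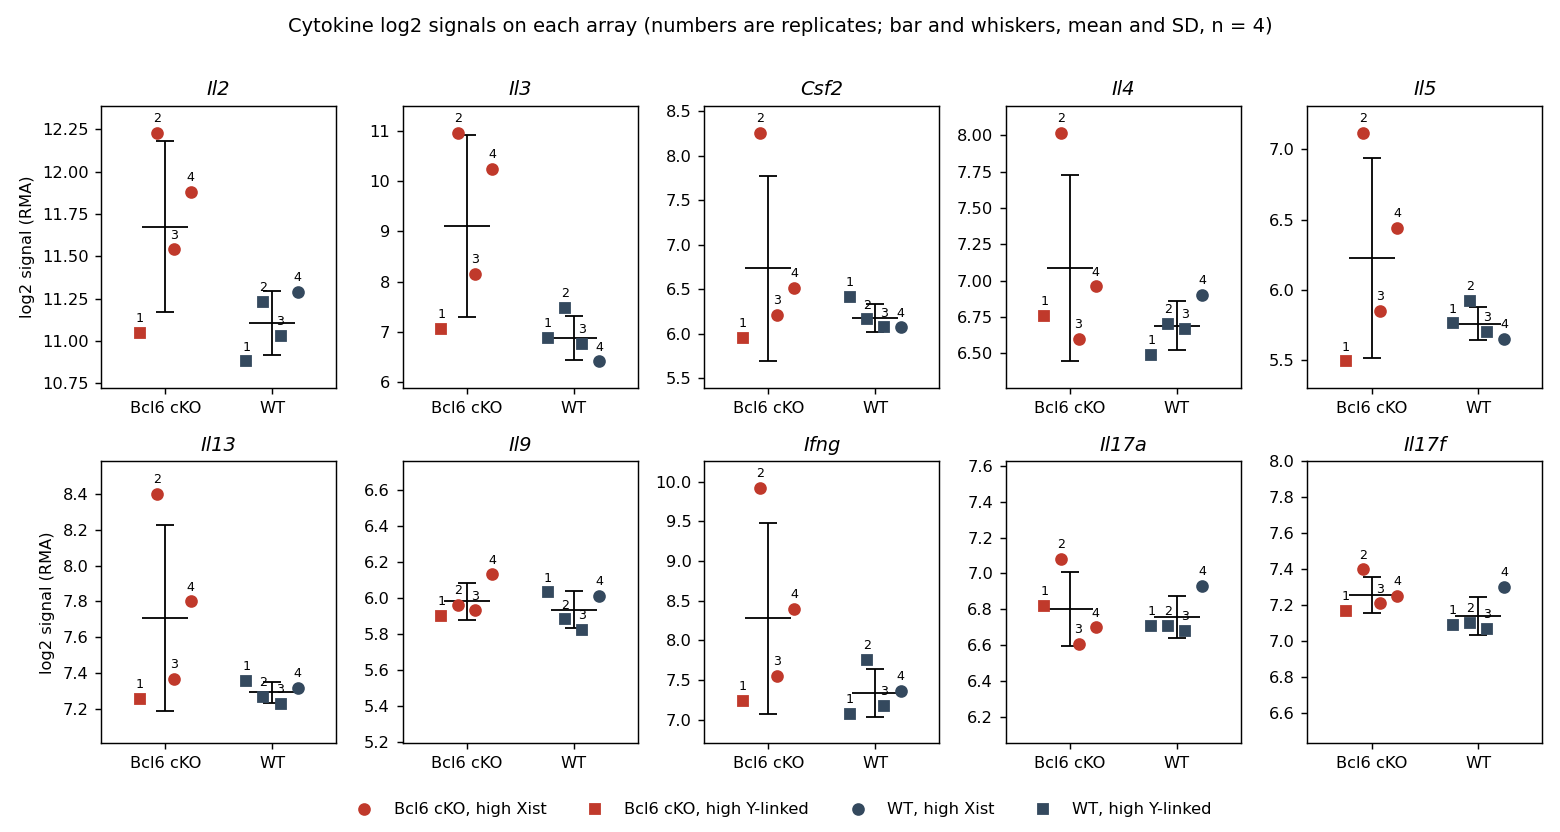
Log2 signal of each cytokine gene on every array, Bcl6 cKO left of WT, each panel with its own axis. Points are arrays with their replicate number, circles have high Xist and squares high Y-linked genes, and bars show mean and SD (n = 4). Bcl6 cKO replicate 2 is the highest point for 9 of the 10 genes.

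Il3 encodes interleukin-3, a growth factor for mast cells, basophils and blood progenitors that activated T cells secrete. Its signal (cluster 10385918) was 7.05, 10.97, 8.15 and 10.25 on Bcl6 cKO replicates 1 to 4, against 6.87, 7.47, 6.75 and 6.41 on WT replicates 1 to 4. Bcl6 cKO replicates 2, 3 and 4 lay above every WT array, and replicate 1 lay within the WT range. The means were 9.11 ± 1.82 in Bcl6 cKO and 6.88 ± 0.44 in WT (SD, n = 4 each). The log2 difference was 2.23 with a 95% confidence interval of 0.67 to 3.79, and it did not pass over all genes (limma adjusted p = 0.265). Without Bcl6 cKO replicate 2 it was 1.61. The SD among Bcl6 cKO arrays was 4.12 times that among WT arrays.

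Csf2, which lies beside Il3 and encodes GM-CSF, a growth and activation factor for macrophages and granulocytes, was high on a single array. It read 5.95, 8.26, 6.21 and 6.51 on Bcl6 cKO replicates 1 to 4, against 6.41, 6.16, 6.07 and 6.07 in WT. Replicate 2 stood 1.85 above the highest WT array, replicate 4 only slightly above it, and replicate 1 was the lowest of all 8. The log2 difference was 0.56 (95% confidence interval -0.33 to 1.44, limma adjusted p = 0.689), and 0.046 without Bcl6 cKO replicate 2.

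Il2 encodes the T cell growth factor interleukin-2, the first cytokine of a newly activated T cell. The signal (cluster 10497878) was 11.05, 12.23, 11.54 and 11.88 on Bcl6 cKO replicates 1 to 4, against 10.88, 11.23, 11.03 and 11.29 in WT. Again replicates 2, 3 and 4 were above every WT array and replicate 1 was among them. The log2 difference was 0.57, or 1.48-fold, with a 95% confidence interval of 0.11 to 1.02 (limma adjusted p = 0.343). Without replicate 2 it was 0.38.

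The Th2 cytokines had smaller differences than Il3, and each was highest on Bcl6 cKO replicate 2. Il4, whose product drives Th2 commitment and antibody class switching, read 6.76, 8.02, 6.60 and 6.96 on Bcl6 cKO replicates 1 to 4, against 6.49, 6.70, 6.67 and 6.90 in WT. Only replicate 2 stood clearly apart, and without it the log2 difference was 0.083 in place of 0.40. Il5, the eosinophil growth factor, read 5.49, 7.12, 5.85 and 6.44 in Bcl6 cKO, against 5.76, 5.92, 5.70 and 5.65 in WT. Il13, which acts on epithelium and smooth muscle and shares a receptor with interleukin-4, read 7.26, 8.40, 7.37 and 7.80 in Bcl6 cKO, against 7.36, 7.27, 7.23 and 7.32 in WT. For both genes replicates 2 and 4 were above all WT arrays, and replicate 3 was barely above them for Il13. Adjusted p-values were 0.636 for Il4, 0.593 for Il5 and 0.502 for Il13 (limma), on log2 differences of 0.40, 0.47 and 0.41. Without replicate 2 the differences of Il5 and Il13 were 0.17 and 0.18. The WT arrays of Il13 lay within 0.13 of each other, against 1.14 in Bcl6 cKO.

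Ifng encodes interferon gamma, the Th1 cytokine that activates macrophages. It read 7.24, 9.92, 7.55 and 8.40 on Bcl6 cKO replicates 1 to 4, against 7.07, 7.75, 7.17 and 7.36 in WT. Replicates 2 and 4 were above every WT array, while replicates 1 and 3 were below WT replicate 2. The log2 difference of 0.94 had a 95% confidence interval of -0.09 to 1.97 (limma adjusted p = 0.518), and it was 0.39 without replicate 2.

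The remaining 3 genes had small differences between the group means. Il9, a mast cell growth factor made by Th9 cells, lay between 5.90 and 6.13 in Bcl6 cKO and between 5.82 and 6.03 in WT. Il17a and Il17f encode the neutrophil-recruiting cytokines of Th17 cells. Il17a lay between 6.61 and 7.08 in Bcl6 cKO and between 6.68 and 6.93 in WT, and Il17f between 7.17 and 7.40 in Bcl6 cKO and between 7.07 and 7.30 in WT. Their log2 differences were 0.045 for Il9, 0.045 for Il17a and 0.12 for Il17f. The 95% confidence intervals were -0.11 to 0.20, -0.17 to 0.26 and -0.04 to 0.27.

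The deposited table gives no detection call, so 18 genes restricted to other organs, such as Alb of liver and Myh6 of heart, served as a rough guide to background. They read between 4.79 and 8.48. The upper end was set by Tnnt2 of heart, at 8.48 and 8.43 on Bcl6 cKO replicates 2 and 4. On the other arrays Tnnt2 read 8.07 to 8.23. Il2 was above the full range of 4.79 to 8.48 on all 8 arrays. Il3 was above it on Bcl6 cKO replicates 2 and 4 and Ifng on Bcl6 cKO replicate 2, and no WT array was above it for either. The other 7 cytokines stayed within it on all 8 arrays, and no fold is given for the 9 genes with WT values inside it. Without Tnnt2 the highest gene of other organs was Apoa1, at 7.80. Csf2 (8.26), Il4 (8.02) and Il13 (8.40) were above 7.80 on Bcl6 cKO replicate 2. So were Ifng on Bcl6 cKO replicate 4 (8.40) and Il3 on Bcl6 cKO replicate 3 (8.15), and none of these cytokines was above 7.80 in WT. Probes differ in brightness, so a level inside the range of the 18 genes is not shown to stand above background, nor shown to be absent.

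The Bcl6 cKO arrays ranged more widely than the WT arrays for 9 of the 10 cytokines, against 43.5% of all genes, and for Il17f both groups ranged over 0.23. Bcl6 cKO replicate 2 was the highest of the 8 arrays for 9 of the 10 cytokines, against 11.9% of all genes. Replicate 2 was highest and replicate 4 next for 7 of the 10, against 2.48% of all genes. The range among Bcl6 cKO arrays was over 1 for 7 of the 10, against 0.702% of all genes, and among WT arrays for 1 of the 10 (Il3), against 0.381%. Replicates 2 and 4 were both above replicates 1 and 3 among the Bcl6 cKO arrays for 9 of the 10 (all but Il17a), against 13.6% of all genes. The same split was seen among the WT arrays for 4 of the 10 (Il2, Il4, Ifng and Il17f), against 16.8%. What sets the even-numbered arrays apart is not given in the labels, and its part in the cytokine values was not tested. With odd or even number as a term 0 of the 10 were called, against 0.466% of all genes (limma adjusted p of 0.0958 for Il2 and 0.102 for Il3). These patterns were picked after the values were seen. The median deviation of the 10 genes from their WT means was -0.035, 1.23, 0.073 and 0.42 on Bcl6 cKO replicates 1 to 4, and between -0.078 and 0.05 on the WT arrays. That Bcl6 cKO replicate 1 was not above the highest WT array held for 87.9% of all genes.

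**Figure D2:**
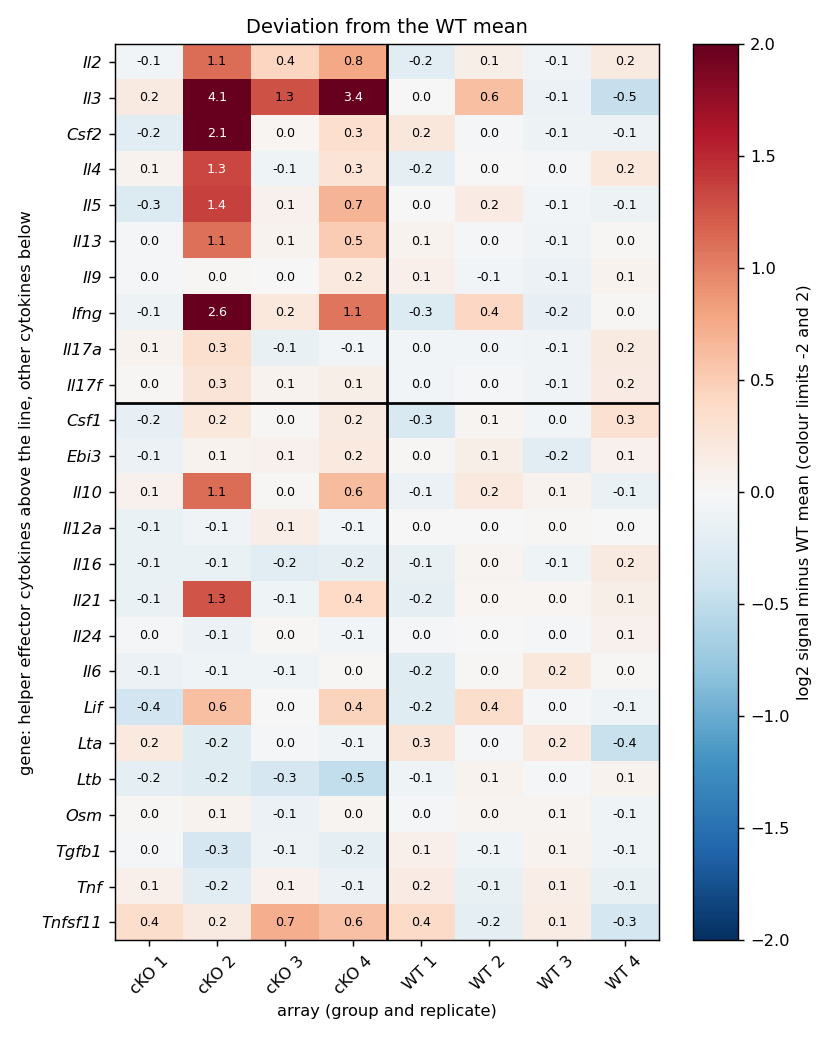
Log2 signal minus the WT mean of each gene, on the 4 Bcl6 cKO arrays left of the 4 WT arrays. Rows above the line are the 10 effector cytokines and rows below it other T cell cytokines. The strongest red cells are in Bcl6 cKO replicates 2 and 4, with Il3 at 4.10 and 3.38 above its WT mean.

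The arrays above WT were all among those with high Xist, so the genotype difference was also taken within each sex. Within high-Xist arrays (Bcl6 cKO replicates 2, 3 and 4 against WT replicate 4) the log2 difference of Il3 was 3.38, and within high-Y arrays (Bcl6 cKO replicate 1 against WT replicates 1 to 3) it was 0.02. For Ifng these were 1.26 and -0.09, for Csf2 0.92 and -0.26 and for Il5 0.82 and -0.30. Il2 had 0.59 and 0.0033, Il13 had 0.54 and -0.027, and Il4 had 0.29 and 0.14. The remaining genes had -0.13 and 0.12 (Il17a), -0.013 and 0.083 (Il17f) and -0.0033 and -0.01 (Il9). The interaction of genotype and sex was itself tested. It did not pass for any of the 10 (limma adjusted p between 0.384 for Il3 and 0.991 for Il9), against 0.00502% of all genes called. For Il3 the difference between the sexes was 3.36 with a 95% confidence interval of 0.50 to 6.22, and no other interval left out 0. Each of these comparisons sets 1 array of a genotype against 3, and a single array carries no spread of its own, so that of the other arrays was used for it.

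With sex as a term over all 8 arrays the log2 difference of Il3 was 1.70 (95% confidence interval -0.05 to 3.45, limma adjusted p = 0.511) and that of Il2 0.30 (-0.10 to 0.70, limma adjusted p = 0.619). In that fit 0.0502% of all genes were called (0.0251% in each direction), and none of the 10. Within high-Xist arrays 0.216% of all genes were called (0.16% higher and 0.0552% lower), and none of the 10 (limma adjusted p of Il3 0.101 and of Il2 0.214, at unadjusted p of 0.00482 and 0.0342). Within high-Y arrays no gene was called in limma, with 332 genes higher and 520 lower at an unadjusted p under 0.05 and none of the 10 among them.

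**Figure D3:**
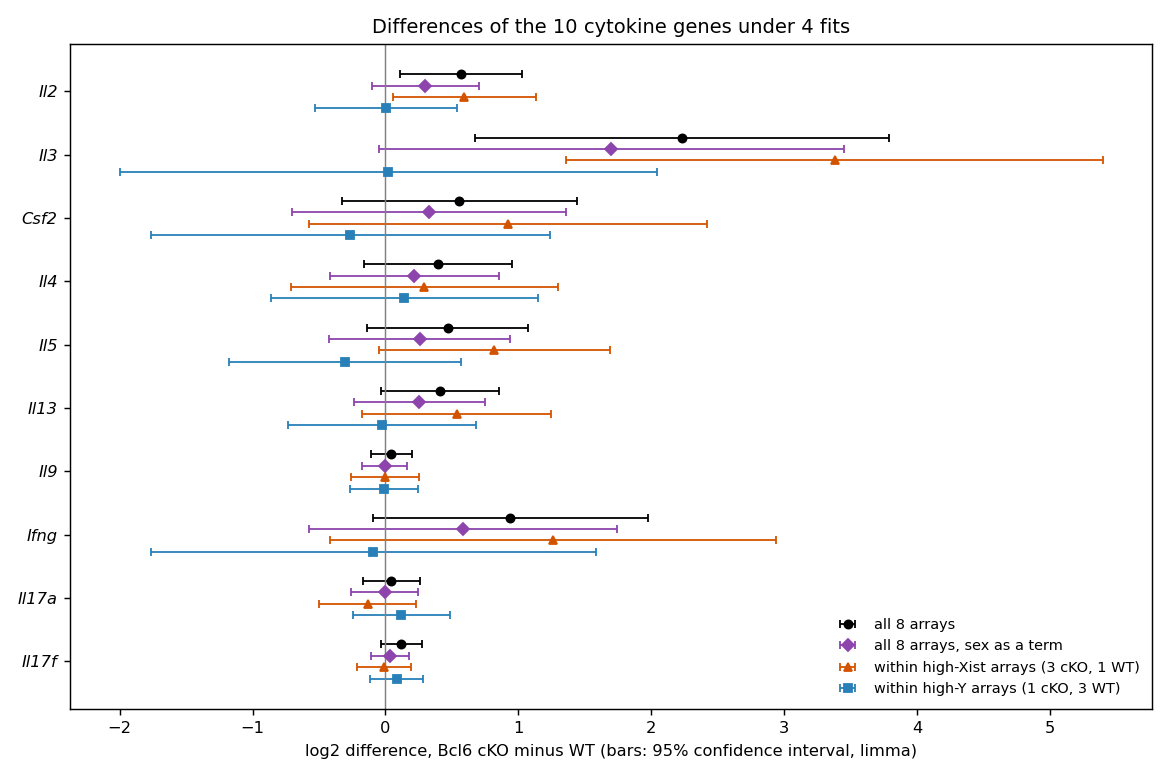
Log2 difference of each cytokine gene, Bcl6 cKO minus WT, with 95% confidence intervals from limma. The 4 symbols are the fit over all 8 arrays, the fit with sex as a term, and the differences within high-Xist and within high-Y arrays. Il3 runs from 0.02 within high-Y arrays to 3.38 within high-Xist arrays.

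Il4, Il13, Il5, Csf2 and Il3 lie on chromosome 11, in this order among tested genes, with other genes between them. Il2 is on chromosome 3, Ifng on 10, Il9 on 13, and Il17a and Il17f on 1. The neighbour list has 14 genes that lie on chromosome 11 (Ccni, also listed, lies elsewhere and was set aside). None was called, 10 were above WT, and their median log2 difference was 0.074. Bcl6 cKO replicate 2 was the highest array for 4 of the 14 (Irf1, Pdlim4, Slc22a5 and, by 0.01, Kif3a), against 11.9% of all genes. Rad50, a DNA repair gene between Il13 and Il5, read 10.79, 10.69, 10.87 and 10.76 on Bcl6 cKO replicates 1 to 4, against 10.77, 10.73, 10.73 and 10.67 in WT. It thus did not share the high value of replicate 2, and neither did P4ha2, a collagen hydroxylase gene next to Csf2, nor Acsl6, a fatty acid activating enzyme gene next to Il3.

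Irf1, the interferon regulatory factor gene next to Il5, read 10.60, 11.68, 10.72 and 11.28 in Bcl6 cKO, against 10.53, 11.27, 10.44 and 11.07 in WT. Pdlim4, an actin-linked LIM protein gene, read 9.17, 10.01, 8.84 and 9.69 in Bcl6 cKO, against 8.73, 9.68, 8.78 and 9.41 in WT. In both genes the even-numbered arrays were the higher ones in each group, as for Il2, Il4, Ifng and Il17f. Septin8 (log2 difference 0.24), Acsl6 (0.21), Uqcrq (0.12), P4ha2 (0.095), Shroom1 (0.095), Rad50 (0.053), Kif3a (0.028) and Slc22a5 (0.028) were the other neighbours above WT. Aff4 (-0.13), Slc22a4 (-0.043), Leap2 (-0.005) and Gdf9 (-0.005) were below it.

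**Figure D4:**
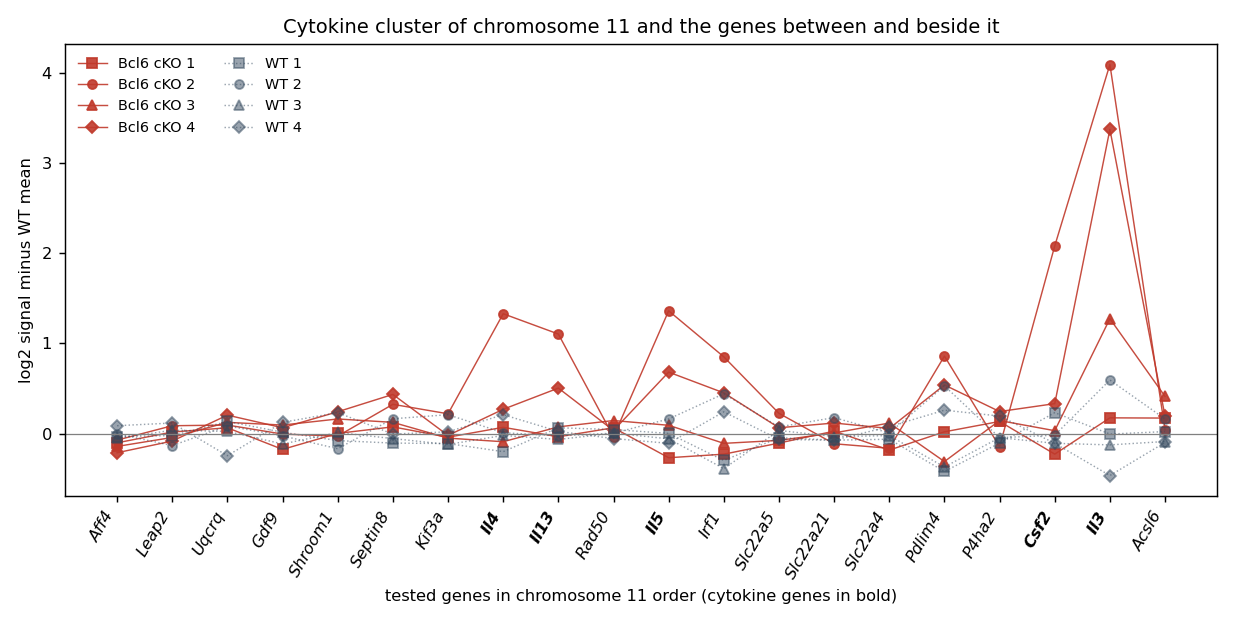
Log2 signal minus the WT mean for tested genes of the chromosome 11 cytokine cluster, in gene order, with cytokine genes in bold. Each line is an array, Bcl6 cKO solid and WT dotted. Bcl6 cKO replicate 2 peaks at the 5 cytokine genes and is near the WT arrays at Rad50, P4ha2 and Acsl6. It is also the highest array at Irf1, Pdlim4, Slc22a5 and, narrowly, Kif3a.

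Of the receptor chains through which these cytokines act 15 were measured. None was called (limma), 7 were above WT and 8 below, with a median log2 difference of -0.037. Il17ra, the shared receptor chain for interleukins 17A and 17F, had the smallest p. It read 10.49, 10.53, 10.26 and 10.27 on Bcl6 cKO replicates 1 to 4, against 10.68, 10.90, 10.69 and 11.04 in WT. All 4 Bcl6 cKO arrays lay below all WT arrays, while 5.97% of all genes had groups that did not overlap in either direction. The log2 difference of Il17ra was -0.44 (95% confidence interval -0.65 to -0.23, limma adjusted p = 0.108).

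Csf2rb, the signalling chain shared by the receptors for interleukins 3 and 5 and GM-CSF, had a log2 difference of 0.26 (limma adjusted p = 0.43). It was highest on Bcl6 cKO replicate 2, at 7.39, against 6.88 or less in WT. Its ligand-specific partners had differences of -0.073 for Il3ra, -0.068 for Csf2ra and -0.038 for Il5ra, and the related Csf2rb2 had 0.058. Il4ra, the receptor chain that interleukins 4 and 13 share, read 11.47, 12.37, 11.47 and 11.98 in Bcl6 cKO, against 11.66, 11.81, 11.63 and 11.71 in WT. Replicates 2 and 4 were again the highest, while the mean difference was 0.12. Il13ra1 differed by 0.038 and Il13ra2 by -0.078.

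Of the interleukin-2 receptor, the high-affinity chain Il2ra differed by 0.11 and Il2rb by -0.068. The interferon gamma receptor chains differed by -0.27 (Ifngr1) and 0.013 (Ifngr2), Il9r by 0.11 and Il17rc by -0.055.

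Other T cell cytokines were mixed. Of 15 measured none was called (limma), 7 were above WT, and the median log2 difference was -0.033. Ltb, which encodes lymphotoxin beta and helps build lymphoid tissue, had -0.31 (limma adjusted p = 0.136). Tnfsf11, the osteoclast factor RANKL, had 0.46 and Il16, a CD4 cell attractant, -0.17. Il21, the follicular helper cytokine, read 5.35, 6.75, 5.40 and 5.88 in Bcl6 cKO, against 5.31, 5.52, 5.52 and 5.60 in WT, and Il10 5.28, 6.31, 5.22 and 5.83 against 5.07, 5.38, 5.26 and 5.05 (both picked after their values were seen). Both were highest on Bcl6 cKO replicates 2 and 4. Tnf, the early inflammatory cytokine, lay between 11.85 and 12.17 in Bcl6 cKO and between 11.92 and 12.22 in WT, with replicates 2 and 4 the lower ones in both groups.

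Among 20 measured factors of the helper lineages none was called, and 12 were above WT (median log2 difference 0.07). Bcl6 cKO replicate 2 was the highest array for 12 of the 20, against 11.9% of all genes, so this trait was not confined to the cytokines. The same held for 5 of 15 receptor chains and 4 of 15 other T cell cytokines, but for 0 of 11 T cell identity genes. Foxp3, the regulatory T cell factor, had -0.50 (limma adjusted p = 0.2), Bhlhe40, which promotes cytokine production, 0.29, and Ahr, a ligand-activated factor of Th17 cells, 0.41. Tbx21, the Th1 factor that drives Ifng, read 8.33, 10.65, 8.97 and 9.94 on Bcl6 cKO replicates 1 to 4, against 8.22, 9.13, 7.73 and 8.51 in WT (named after its values were seen, as is Gata3). Replicates 2 and 4 were above all WT arrays, as for Ifng. Gata3, the Th2 factor, read 10.23, 11.20, 9.81 and 10.57 in Bcl6 cKO, against 10.38, 9.96, 10.36 and 9.67 in WT, where the lowest were the even-numbered arrays.

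Of 19 measured NFAT, AP-1, NF-kappaB, Ets and Egr factors none was called and 7 were above WT, with a median of -0.055. Ets1 had a log2 difference of -0.21, Fos -0.34 and Nfatc3 -0.13. None of these 3 was highest on Bcl6 cKO replicate 2, but 5 of the 19 were, against 11.9% of all genes. Jun was among those 5, at 9.70 there and 8.44 to 8.80 on the other arrays. Of 12 general activation markers 5 were above WT, with a median of -0.038. Cd44, an adhesion receptor that increases on activated and memory T cells, read 8.33, 9.28, 8.50 and 8.92 in Bcl6 cKO, against 8.42, 7.72, 8.02 and 7.61 in WT (log2 difference 0.82, limma adjusted p = 0.178). Myc differed by 0.17 and Tnfrsf18 by -0.13.

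For each of the 7 cytokines whose 8 values spanned more than 1, the 5 named genes with the highest Pearson correlation over the 8 arrays were listed, out of 16866 compared. Pairs of these 7 cytokines correlated between 0.764 and 0.976 (median 0.923). Without Bcl6 cKO replicate 2, over 7 arrays, the range was -0.006 to 0.915 (median 0.808), with Csf2 and Il4 the lowest pair. These correlations describe 8 arrays that fall into the genotype groups, and carry no test.

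The genes most like Il3 were Zbtb12, Gatm, Gtse1, Ahr and Prps1 (r from 0.975 to 0.986, and from 0.949 to 0.977 without replicate 2). Gatm makes a creatine precursor, Gtse1 acts in late cell cycle phases and Prps1 starts nucleotide synthesis. Gatm was also among the 5 most like Il2, with Wfikkn2, Glb1, Hdc and Lrp8 (r from 0.957 to 0.986). Sema4b, Mink1, Cysltr2, Elmo2 and Ccl1 were most like Ifng (0.985 to 0.991), and Mink1, Slc2a6, Nfil3, Wdr59 and Cd83 most like Il5 (0.976 to 0.983). Nfil3, a basic leucine zipper factor known as a regulator of T cell cytokines, read 7.46, 9.03, 7.65 and 8.14 in Bcl6 cKO, against 7.62, 7.66, 7.63 and 7.60 in WT. It was second for Il13 (r = 0.987), after Arl14 and before Slc2a6, Fcer1a and Ccl1.

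The lists of Csf2 and Il4 depended on replicate 2. Mpo, Lilr4b, Fcer1a, Tigit and Ppbp were most like Csf2 (0.97 to 0.987, and 0.31 to 0.889 without replicate 2). Wdr25, Efna5, Il21, Jun and Cysltr2 were most like Il4 (0.977 to 0.981, and 0.777 to 0.836 without it). Mpo is a granule enzyme of neutrophils, Fcer1a the IgE receptor chain of mast cells and basophils, and Ppbp a platelet chemokine gene. On Bcl6 cKO replicate 2 Mpo read 7.80, against 6.97 to 7.16 on the other 7 arrays, and Ppbp read 6.59, against 4.88 to 5.14. All 28 distinct genes named in these lists were highest on Bcl6 cKO replicate 2. This largely follows from how they were picked, as the 7 cytokines they were matched to are all highest there. None of the 28 was called (smallest limma adjusted p 0.306).

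Markers of the sorted cells and of other cells are set beside these results, because interleukins 3, 4 and 13 are also made by mast cells and basophils. In a bulk sample a change in the number of cells that make a transcript and a change in transcript per cell cannot be told apart. The 11 measured T cell identity genes, Cd3e and Cd4 among them, read between 10.75 and 13.20, and 1 of 11 was above WT. Cd3d had a log2 difference of -0.17, Cd2 -0.17 and Cd28 -0.14. Of the 10 mast cell and basophil markers 8 were above WT (median 0.059) and 5 were highest on Bcl6 cKO replicate 2. Their summed linear signal was 665 to 778 in Bcl6 cKO, against 644 to 710 in WT.

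Within that list Mcpt8, a basophil protease gene, read 5.76, 6.60, 5.93 and 6.01 in Bcl6 cKO, against 5.89, 5.50, 5.91 and 5.91 in WT. Cpa3, a mast cell and basophil protease gene named after its values were seen, read 5.07, 6.22, 4.82 and 5.37 in Bcl6 cKO, against 5.19, 4.83, 5.20 and 5.08 in WT. Fcer1a read 4.97 on Bcl6 cKO replicate 2, against 4.53 to 4.71 on the other arrays. All 3 were highest on the array with the highest cytokine signals, and none was above the range of the genes of other organs. Tpsb2 and Ms4a2 were also highest on that array, by less, at 6.65 against 6.48 to 6.61 and at 4.59 against 4.38 to 4.54 on the other 7. Mcpt4 lay between 4.75 and 4.90 on all 8 arrays and was not highest on that array. Neither were Prss34, Kit, Gata2 and Cd200r3. Prss34, another basophil protease gene, read 7.02 there, against 6.98 to 7.29 on the other 7. The part of these cells in the cytokine signals was not tested.

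Of 13 myeloid and dendritic cell markers 6 were above WT (median -0.015), with a summed linear signal of 1101 to 1232 in Bcl6 cKO and 1115 to 1230 in WT. Lyz2, the macrophage lysozyme gene, read 7.67 on Bcl6 cKO replicate 2, against 5.82 to 6.58 on the other 7 arrays (named after its values were seen). It was the only 1 of the 13 that was highest on that array. Fcgr3 had a log2 difference of -0.32, Zbtb46 -0.10 and Itgam -0.12. B cell markers (5 of 6 above WT, median 0.03) summed to 596 to 642 in Bcl6 cKO and 575 to 621 in WT, with Ms4a1 at -0.17, Pax5 at 0.11 and Cd79b at 0.11. Markers of NK and innate-like T cells (4 of 7 above WT, median 0.02) summed to 538 to 545 in Bcl6 cKO and 517 to 566 in WT, with Klrb1c at -0.13, Ncr1 at 0.14 and Zbtb16 at 0.09.

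The 4 markers of CD8 T cells, which also make interferon gamma, were all below WT, with a summed linear signal of 1632 to 2110 in Bcl6 cKO and 2523 to 2599 in WT. Cd8b1 read 10.52, 10.56, 10.78 and 10.41 in Bcl6 cKO, against 10.90, 11.12, 11.02 and 11.12 in WT (log2 difference -0.47, limma adjusted p = 0.0541), while Cd8a lay between 6.90 and 7.05 in Bcl6 cKO and between 6.93 and 7.14 in WT. Klrd1 differed by -0.49 and Crtam by -0.57. Cd8b1 was lower on every Bcl6 cKO array than on every WT array, replicates 1 and 3 included, though no CD8 marker passed the test. Groups did not overlap for 5.97% of all genes. The summed signal was split in the same way, but Cd8b1 was the brightest of the 4 and makes up most of it. For Cd8a, Klrd1 and Crtam the groups overlapped.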

How the data were processed

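The authors deposited a table of log2 values for 35556 transcript clusters on 8 arrays. RMA and Partek are named, per the submitters' processing notes, with neither version nor setting given in the sources used here. RMA brings arrays to 1 distribution and shrinks differences of dim genes. Per the labels' protocols 100 ng of total RNA was labelled. The log base was read from the range of the values. Arrays have no read depth, so their number limits the precision.

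Of the clusters 21789 had 1 gene symbol in the platform annotation, 1621 several and 12146 none. The cluster with the highest mean was kept per gene (999 genes had several), leaving 19938 genes. The groups were set against each other in limma 3.58.1 (R 4.3.3) by lmFit and eBayes without trend or covariate, with Benjamini-Hochberg adjustment over all genes at 0.05. Differences are Bcl6 cKO minus WT. No filter on dim genes was applied. The fit was tested on simulated data. No 2 arrays shared more than 3.94% of values.

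The cytokines, the lists and the rule for named genes were chosen with earlier results of these data known. The rule names all 10 cytokines, all receptor chains and chromosome 11 neighbours, up to 3 genes of smallest p per other list, and for each cytokine spanning more than 1 over the arrays the 5 most like it, leaving out predicted, clone, small RNA and olfactory genes. Some genes, such as Tnf, Cd3e, Cd4, Cd8a, Ms4a2, Mcpt4 and Prss34, are named outside this rule, with their values known. Genes not measured are not analysed here. Chromosomes and promoter windows are from RefSeq tables of GRCm38.p6. The array values name no genome build. Sex was read from Xist and Y-linked genes. Alternatives were moderation, array weights, scaling, filters, the mean of clusters, a replicate block, sex and leaving out each array. Odd or even replicate number, within-sex differences and the interaction were added after the data were seen.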

Additional observations from a re-analysis of the deposited data

Results flagged for a closer look

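In 20 groups of 4 arrays (10 cytokines in each genotype) 2 held an array farther from the rest than Dixon's criterion allows, and chance gives about 1 in 20. Both are WT replicate 4, in the Th17 cytokine genes. Il17a read 6.93 there, against 6.68 to 6.71 on the other WT arrays, and Il17f read 7.30, against 7.07 to 7.10. WT replicate 4 is the WT array with high Xist and the widest deviations over all genes.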

How the results depend on the processing

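No cytokine passed the threshold under any of the alternatives run (200 values, smallest limma adjusted p 0.0527, for Il3 without Bcl6 cKO replicate 1). Of the 200 values 60 come from settings that leave a difference of group means as it is (moderation, filters, mean of clusters, replicate block, odd or even number), and of the other 140 values 128 kept their sign. The log2 differences of Il2, Il3 and Il4 kept their sign in the alternatives that could change it. The sign turned for Il17a and Il9 with sex as a term (-0.0067 each), within high-Xist arrays for Il17a (-0.13), Il17f (-0.013) and Il9 (-0.0033), and within high-Y arrays for Csf2 (-0.26), Ifng (-0.09), Il13 (-0.027), Il5 (-0.30) and Il9 (-0.01). Leaving out single arrays gave 1.61 to 2.92 for Il3, 0.38 to 0.78 for Il2, 0.39 to 1.29 for Ifng, 0.046 to 0.82 for Csf2, 0.083 to 0.56 for Il4, 0.17 to 0.71 for Il5, 0.18 to 0.56 for Il13, 0.07 to 0.17 for Il17f, -0.048 to 0.11 for Il17a and -0.005 to 0.077 for Il9. For Csf2, Ifng, Il4, Il5, Il13 and Il2 the lowest value was that without Bcl6 cKO replicate 2, as for Il3. Csf2, Il5 and Il9 fell below the filter at the 30th percentile, and these and Il4, Il13, Il17a and Il17f below that at the median, so they have no value there. On all 8 arrays 7 of the 10 stayed within the range of the genes of other organs, whose upper end was set by Tnnt2. Whether these low levels limited their test was not tested.

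The replicate numbers were not taken as pairs, because the labels give them no meaning and 1 of 4 same-numbered pairs correlated at 0.073, under the 0.1 required of each. The other 3 correlated between 0.203 and 0.206, and 6 of 8 arrays correlated best with their own number, a hint of pairing from the data. With the replicate block 15 genes were higher and 20 lower, and no cytokine was called. The block cannot move the differences, but it narrowed intervals, to 0.29 to 1.59 for Ifng and 0.017 to 0.81 for Il13, and the limma adjusted p was 0.128 for Il2 (unadjusted 0.0012) and 0.163 for Il3 (unadjusted 0.0033). Over all genes 21 were higher and 23 lower. The lower count was 47 with trend, 47 with robust moderation, 51 with array weights, 13 with median centring, 14 with quantile normalization, 42 above the 30th percentile of signal and 52 above the median. Higher and lower counts were 5 and 5 with sex, 33 and 60 with odd or even number, 0 and 0 within high-Y arrays (332 and 520 unadjusted) and 32 and 11 within high-Xist arrays. Without single arrays they ran from 5 to 39 higher and from 5 to 100 lower. Both counts were highest without Bcl6 cKO replicate 1, and leaving out any other array lowered both. With median centring 19 genes were higher, and with quantile normalization 22. The cause of these shifts was not tested.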
